A study of Mus musculus with 15 samples.

Results

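The genes examined were 10 Wnt ligands, Wnt3, Wnt3a, Wnt5a, Wnt5b, Wnt8a, Wnt2, Wnt2b, Wnt6, Wnt7b and Wnt11, out of 38295 genes in the deposited count matrices. They were taken by name from a fixed list, which left out 9 other Wnt ligands and was drawn up with earlier results of these data known. Single-cell RNA sequencing (scRNA-seq) libraries came from 15 whole mouse embryos, 1 embryo to a library, aged from embryonic day (E) 6.0 to E7.75. Of these, 12 were control embryos and 3 were Mesp1 KO embryos. Mesp1 KO embryos carried 2 copies of the Mesp1 Cre knock-in allele, which disrupts the gene, holds a PGK-Neo cassette and expresses Cre in early mesoderm, whereas control embryos carried 1 copy or none. The embryos of both genotypes were labelled C57/BL6 and carried a Smarcd3-F6 enhancer driving eGFP, and most also carried the Cre-dependent Rosa26R Ai14 reporter, which the early E7.5 control and late E7.5 control replicate 1 lacked. The early stage comprised 5 controls (E6.0 replicates 1, 2 and 3, late E6.0 and E6.5) and the E6.5 KO. The middle stage comprised 3 controls (early E7.5, late E6.5 and E7.0) and the E7.0 KO. The late stage comprised 4 controls (late E7.5 replicates 1 and 2, and E7.75 replicates 1 and 2) and the late E7.5 KO. Each stage thus had a single KO embryo, and p-values measured the spread between embryos.

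Wnt proteins are secreted, lipid-modified signals that act over short distances. Porcn attaches the lipid and Wls carries the ligand to the cell surface. Binding to a Frizzled receptor together with Lrp5 or Lrp6 stabilizes beta-catenin, which enters the nucleus and activates TCF and LEF target genes, whereas signaling through Ror2 or Ryk can proceed without beta-catenin and controls cell shape and movement. In the gastrulating mouse embryo Wnt3 is required to form the primitive streak, the posterior site where epiblast cells become mesoderm and endoderm. Wnt3a then maintains the streak and caudal progenitors of the trunk, and Wnt5a drives posterior elongation. Mesp1 encodes a transcription factor switched on in mesoderm leaving the streak.

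After removal of barcodes with a high mitochondrial share or extreme counts, 93701 of 99474 barcodes remained, 77481 from control and 16220 from KO embryos. Library totals ranged from 13058356 to 379177866 unique molecular identifiers (UMIs, each 1 captured transcript), and median UMIs per retained cell ranged from 3827 to 34415. The lowest medians belonged to the late E7.5 KO (3827) and E7.75 control replicate 1 (3925.5), which were prepared in the same experiment. Pairs of libraries shared at most 451 barcodes (3.03% of the smaller library), and the highest share was 3.65% (247 barcodes), both between libraries of different experiments. Mesp1 itself had 0, 1 and 5 UMIs in the 3 KO libraries against 282 to 16093 in the controls (log2 change −10.67, SE 1.45, adjusted p = 0.0112, edgeR quasi-likelihood test).

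The source of each ligand was read from marker co-detection. A cell entered a set when at least 2 genes of a marker list had a UMI, so that a cell could enter several of the 18 sets, and no ligand was itself a marker. The primitive streak set (T, Mixl1, Fgf8 and Evx1) held 13929 control and 2704 KO cells. Caudal epiblast (Nkx1-2, Cdx1 and Cdx4) held 13462 and 49 cells, and nascent mesoderm (Mesp1, Mesp2 and Lefty2, thus partly the deleted gene) held 3171 and 56. In single libraries 58.3% of cells from E7.75 control replicate 1 and 48.7% from the late E7.5 KO entered no set, against 27.3% over all libraries, and these were the shallowest libraries. Levels are given as CPM, the UMIs of a gene scaled to a total of 1000000 UMIs in every embryo.

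**Figure D1:**
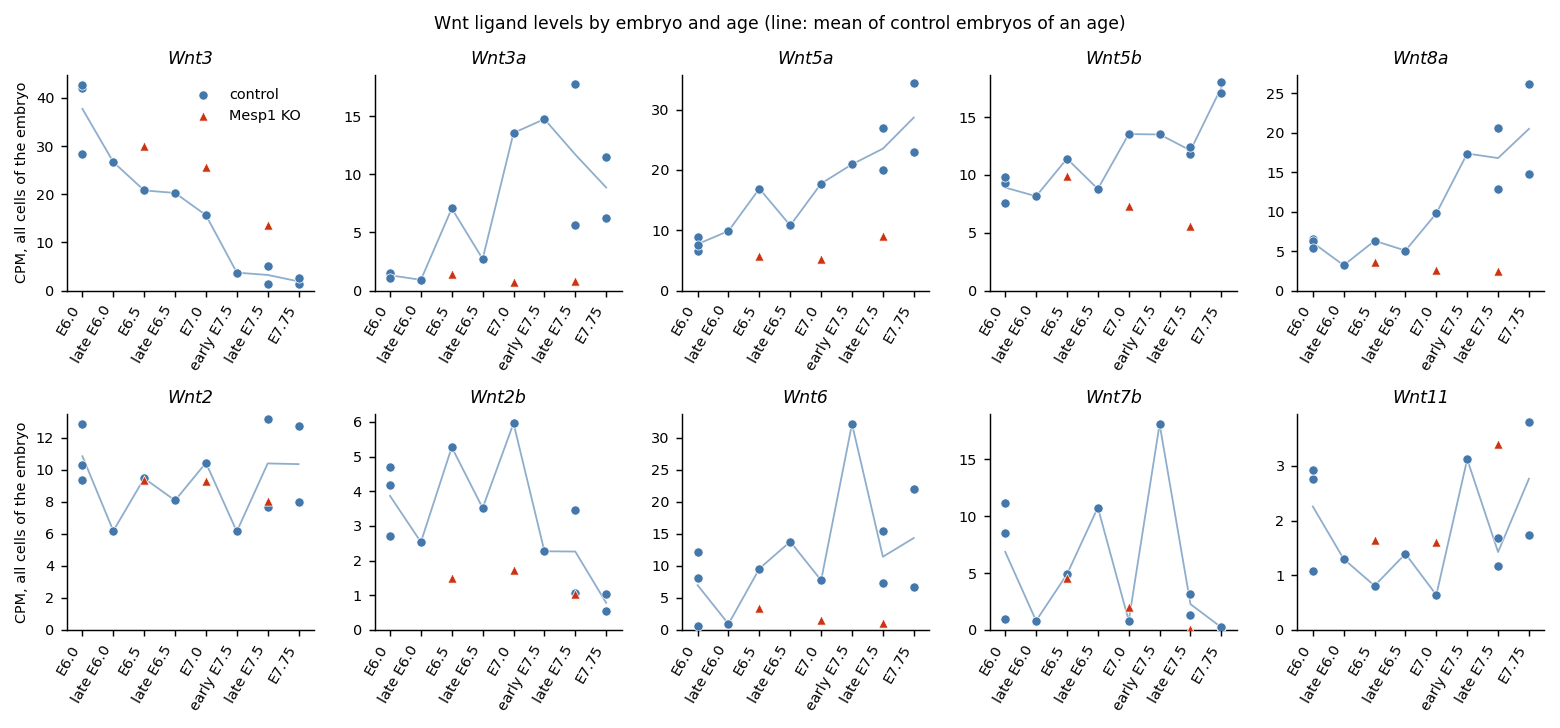
Level of each Wnt ligand over all retained cells, in CPM (linear axes, scales differ between panels), against age, with 1 point per embryo, circles for control and triangles for Mesp1 KO embryos and a line through the control means of each age. Wnt3 in control embryos ranged from 28.4 to 42.8 CPM at E6.0 and from 1.28 to 2.55 CPM at E7.75, whereas the late E7.5 KO held 13.7 CPM.

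Wnt3 was lower and Wnt3a higher in late than in early controls. Levels were summed over all retained cells of an embryo, so fewer cells of a type and less RNA per cell cannot be told apart. Wnt3, the ligand that starts the streak, stood at 42.0, 42.8 and 28.4 CPM in the 3 E6.0 controls, 26.7 in the late E6.0 control and 20.8 in the E6.5 control. It stood at 20.3 CPM at late E6.5, 15.7 at E7.0 and 3.74 at early E7.5, and at 5.18 and 1.33 in the late E7.5 and 1.28 and 2.55 CPM in the E7.75 controls. The early and late controls did not overlap, and Wnt3 fell by 3.48 on the log2 scale from early to late (SE 0.52, adjusted p = 0.00461). Wnt3a, which acts in caudal progenitors, stood at 1.35, 1.53, 1.08 and 0.927 CPM in the E6.0 and late E6.0 controls and 7.06 in the E6.5 control. It then stood at 2.72, 13.6 and 14.7 CPM in the middle and 17.7, 5.67, 6.23 and 11.5 CPM in the late controls. The E6.5 control overlapped the late range, the other early controls did not, and the rise over stages was 2.13 (SE 0.65, adjusted p = 0.0440). Late and middle controls differed by 0.15 for Wnt3a (adjusted p = 0.955). The early to late call was close to the threshold and was lost in 9 of the 12 fits that left out 1 embryo (highest adjusted p = 0.101).

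Wnt3 and Wnt3a lie on the same chromosome, 11, on opposite strands. Wnt3 spans chr11:103774150-103817957 on the plus strand and Wnt3a chr11:59248033-59290752 on the minus strand (mm10, GENCODE M21). As this pair showed opposite courses, the bases upstream of both the RefSeq and the GENCODE starts are given, 5′ to 3′ on the strand of the gene (RefSeq sequence, GRCm38.p6). Capitals mark a match to the T-box letters GGTGTG or CACACC, which 16.3% of 32851 promoter windows of 250 bases held on either strand. The upstream windows, Wnt3 at chr11:103773925-103774149 and Wnt3a at chr11:59290753-59291001, read as follows.
Wnt3: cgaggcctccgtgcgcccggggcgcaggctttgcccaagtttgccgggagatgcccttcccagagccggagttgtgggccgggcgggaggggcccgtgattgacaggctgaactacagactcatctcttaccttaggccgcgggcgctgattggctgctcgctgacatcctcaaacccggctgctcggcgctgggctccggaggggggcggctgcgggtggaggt
Wnt3a: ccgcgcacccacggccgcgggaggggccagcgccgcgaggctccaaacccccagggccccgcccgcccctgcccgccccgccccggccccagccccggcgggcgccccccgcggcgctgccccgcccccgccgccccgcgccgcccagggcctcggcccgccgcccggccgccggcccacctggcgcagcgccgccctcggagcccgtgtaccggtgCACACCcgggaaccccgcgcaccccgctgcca
The Wnt3a match began 33 bases before the RefSeq start. Neither window held the TCF/LEF letters CTTTGA or TCAAAG (13.8% of windows), the GATA letters AGATAA or TTATCT (9.99%) or the ETS letters AGGAAG or CTTCCT (29.5%). A match of letters is a description of this window and not a bound site.

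Among the ligands associated with cell movement, Wnt5a stood at 6.63, 8.91, 7.58, 9.89 and 16.9 CPM in the early controls, 10.8, 17.7 and 20.9 in the middle controls and 20.03, 27.0, 23.0 and 34.4 in the late controls. Every late control was above every early control, and Wnt5a rose by 1.57 from early to late (SE 0.29, adjusted p = 0.00682). Wnt5b, its close relative, ranged from 7.58 to 11.4 CPM in the early and from 11.8 to 18.1 CPM in the late controls and rose by 0.92 (SE 0.23, adjusted p = 0.0208). This call was lost without E6.0 replicate 1, E7.75 replicate 1 or E7.75 replicate 2 (0.88, 0.65 and 0.86, highest adjusted p = 0.0609) and with the replicate number as a block (0.93, adjusted p = 0.0652). Wnt8a, a beta-catenin activating ligand of the posterior epiblast, ranged from 3.21 to 6.6 CPM in the early, 5.08 to 17.4 in the middle and 13.0 to 26.2 in the late controls. It rose by 1.94 (SE 0.33, adjusted p = 0.00522). Wnt11, which also acts without beta-catenin, ranged from 0.808 to 2.93 CPM in the early and from 1.17 to 3.80 CPM in the late controls, so that the groups overlapped (log2 change 0.61, adjusted p = 0.507).

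The differences of the remaining ligands did not pass in edgeR. Wnt2, known from heart and lung mesoderm, ranged from 6.15 to 13.1 CPM over all 12 controls (late minus early 0.37, adjusted p = 0.393). Wnt2b, its paralog, ranged from 2.53 to 5.27 CPM in the early and from 0.533 to 3.45 CPM in the late controls (−1.24, adjusted p = 0.0811), and passed in DESeq2 (−1.26, adjusted p = 0.0285) and in edgeR without late E7.5 control replicate 1 (−1.95, adjusted p = 0.00494). Wnt6 ranged from 0.677 to 32.2 CPM and Wnt7b from 0.194 to 18.1 CPM over the controls, with overlapping early and late groups. Of the 10 ligands, 4 rose and 1 fell from early to late, against 10.0% and 5.92% of the 17833 genes tested. With the experiment as a covariate 0 of the 10 passed (adjusted p of 0.949 or higher), and of all 19582 genes tested 0 rose and 1 fell. The late minus early difference was then 1.94 for Wnt8a, −2.39 for Wnt3, 1.09 for Wnt3a, 0.73 for Wnt5a and 0.44 for Wnt5b. Stage and experiment could be told apart only in part, as 4 of the 5 early and none of the middle or late controls came from experiments 6 and 8. Between early and middle 0 ligands passed and 4 had an unadjusted p under 0.05 (0.00561% and 11.1% of genes), and between middle and late 0 passed and 5 had an unadjusted p under 0.05 (0% and 11.7% of genes). DESeq2 called 0 and 1 ligands in these comparisons (1.19% and 2.34% of genes). In edgeR, 1 ligand passed from early to middle without the E6.5 control, and from middle to late 1 passed without the early E7.5 control and 2 without late E7.5 control replicate 1.

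The other genes of the pathway, from lists chosen with earlier results of these data known, were tested in the same fit, in which 10.0% of all genes rose and 5.92% fell from early to late, and 0 rose and 1 fell with the experiment as a covariate. Of 8 further Wnt ligands tested 4 rose from early to late, among them Wnt10a by 5.84 (SE 1.10, adjusted p = 0.00707) and Wnt4 by 2.57 (SE 0.54, adjusted p = 0.0107). Wls, the ligand carrier, rose by 1.15 (SE 0.18, adjusted p = 0.00461). Of 16 receptors and co-receptors 5 rose and 0 fell, including Ror2, a Wnt5a receptor, by 1.33 (SE 0.26, adjusted p = 0.00801) and Fzd10 by 2.50. Of 12 secreted inhibitors 5 rose, including Notum, which removes the Wnt lipid, by 3.01, whereas Dkk1, an Lrp6 antagonist, fell by 1.61 (SE 0.32, adjusted p = 0.00829). Of 13 canonical targets 5 rose, namely Cdx1, Cdx2, Cdx4, Msgn1 and Tbx6. Of 9 R-spondin system genes, which amplify Wnt reception, 3 rose (Rspo2, Rspo3 and Rnf43), and of 14 intracellular components 1 rose (Pygo1, by 1.92).

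**Figure D2:**
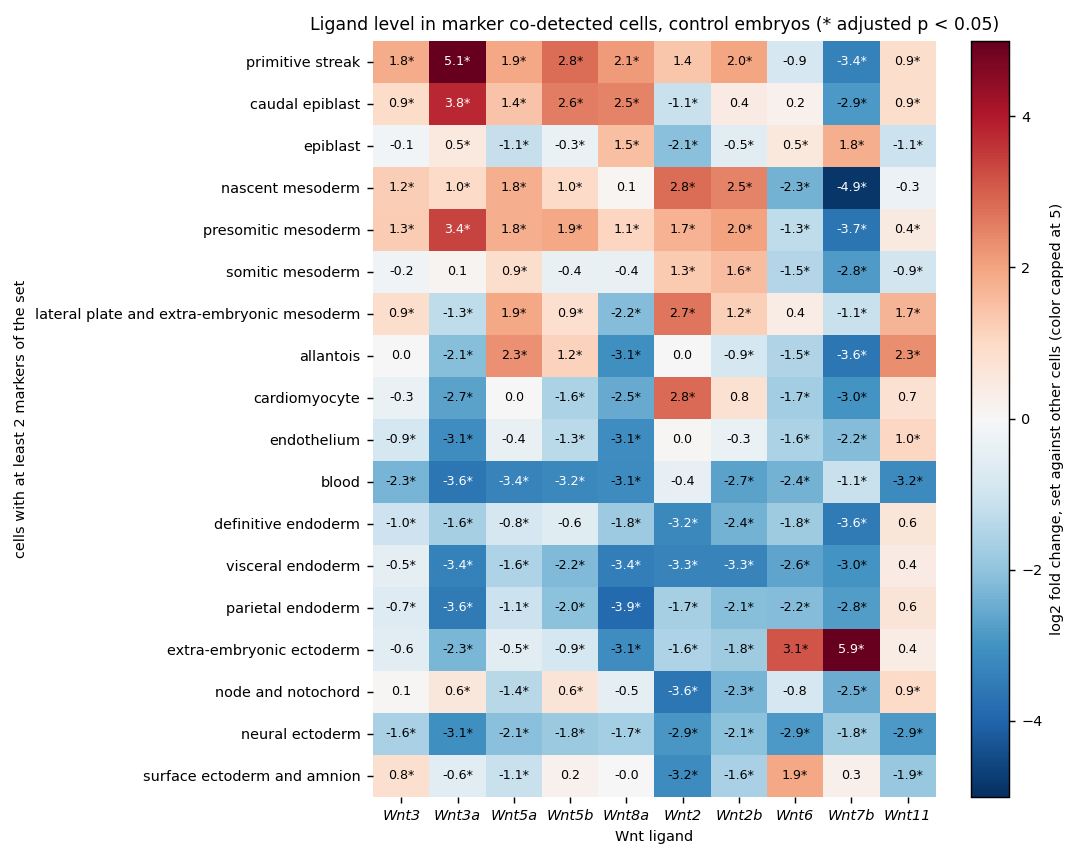
Fitted log2 difference of each ligand (columns) between cells of a marker co-detected set (rows) and all other cells of the same control embryos, with color capped at 5 and marks for adjusted p under 0.05. Wnt3a was 5.08 higher in the primitive streak set and Wnt7b 5.94 higher in the extra-embryonic ectoderm set, and all 10 ligands were lower in the neural ectoderm set.

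The sets in which the ligands were higher differed from ligand to ligand. In the control embryos, cells of a set were compared with the remaining cells of the same embryo. Of 10 ligands, 7 were higher and 1 lower in the primitive streak set, where 22.4% of 17206 genes were higher and 25.9% lower. Wnt3a averaged 24.9 ± 21.8 CPM in the streak set and 0.852 ± 1.15 CPM in other cells (SD, n = 12 embryos) and was higher in 12 of 12 embryos (log2 difference 5.08, SE 0.24, adjusted p = 4.00e-09). The set held a median of 34.7% of an embryo's cells and 95.9% of its Wnt3a UMIs. Shares of UMIs beside shares of cells, here and below, are not corrected for depth. In the E6.5 control, streak cells had a median of 30177 UMIs, against 23830 over all retained cells. Wnt3 averaged 31.0 ± 27.1 against 6.80 ± 4.72 CPM (log2 difference 1.84, SE 0.19, adjusted p = 2.67e-06), with a median of 74.4% of its UMIs in the set. Wnt5b (2.78), Wnt8a (2.14), Wnt2b (1.97) and Wnt5a (1.94) were also higher there. In the presomitic mesoderm set (Tbx6, Msgn1, Dll3 and Hes7) 8 ligands were higher and 2 lower (median 1.49), where 19.9% of genes were higher and 27.0% lower. Wnt3a was 3.37 higher there (SE 0.30) and Wnt5b 1.93 (SE 0.12), and the set held a median of 59.4% of an embryo's Wnt3a UMIs (8.33% to 85.9% over the 12 controls) in 9.75% of its cells. The caudal epiblast set held a median of 75.2% (11.8% to 91.5% over 8 controls) in 15.3% of cells. In caudal epiblast cells Wnt3a (3.77), Wnt5b (2.57) and Wnt8a (2.49) were higher, where 12.9% of genes were higher. Wnt8a in these caudal cells stood at 15.2 CPM at E6.5, 36.7 at E7.0, 58.2 at early E7.5, 67.5 and 35.6 at late E7.5 and 29.2 and 55.9 CPM at E7.75, and had 0 UMIs among the 36 caudal cells of the late E6.5 control. It was thus higher than in other cells in 7 of 8 embryos.

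Wnt5a, Wnt2, Wnt2b and Wnt11 were higher in one or several of the allantois, lateral plate and nascent mesoderm sets. Wnt5a averaged 102 ± 18.0 CPM in allantois cells (Tbx4, Hoxa10, Hoxa11 and Hoxa13) and 20.6 ± 4.46 CPM in other cells of the 7 embryos with at least 10 such cells, and was higher in 7 of 7 (log2 difference 2.30, SE 0.11, adjusted p = 3.91e-11). These cells were 1.005% of an embryo at the median and held 6.64% of its Wnt5a UMIs. Lateral plate and extra-embryonic mesoderm cells (Foxf1, Hand1, Hand2 and Tbx20) held 43.6% of Wnt5a UMIs at the median, in 12.8% of cells (log2 difference 1.95). Wnt11 was also higher in the allantois (2.33, SE 0.27) and lateral plate (1.71, SE 0.23) sets. Over the early controls 64.4% of Wnt11 UMIs lay in the primitive streak set, which made up 36.5% to 41.6% of cells. The epiblast set held 63.9%, within its share of cells (55.2% to 67.1%). The definitive, visceral and parietal endoderm sets held 38.8%, 37.9% and 28.3%, in 4.86% to 16.8%, 14.7% to 27.5% and 6.11% to 15.4% of cells. The lateral plate set held 18.3% in 6.21% to 16.4% of cells, and the allantois set 2.74% in at most 0.694%. Single early controls held 57.1% to 69.6% of these UMIs in the streak, 13.0% to 42.9% in the definitive endoderm and 19.0% to 87.5% in the visceral endoderm set. The definitive endoderm set (at least 2 of Sox17, Foxa1, Trh and Cer1) is named for its markers, and visceral endoderm cells in it were not told apart. In the KO embryos it held 53.9%, 56.9% and 26.9% of Wnt11 UMIs at the early, middle and late stages, in 23.6%, 26.4% and 12.4% of the cells. It made up 4.86% to 16.8% of the cells of the early controls, 4.15% to 15.2% of the middle and 1.10% to 10.6% of the late controls. Wnt11 was higher in the streak set (0.89, SE 0.12), whereas the definitive endoderm difference did not pass (0.60, adjusted p = 0.0795). Of the ligands, 3 were higher and 5 lower in the allantois set (11.9% and 26.1% of genes), and 6 were higher and 3 lower in the lateral plate set (27.4% and 26.5% of genes).

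Wnt2 was higher in nascent mesoderm and in cardiomyocyte cells, while its embryo-wide level stayed between 6.15 and 13.1 CPM. In nascent mesoderm Wnt2 averaged 31.2 ± 11.1 against 5.63 ± 3.76 CPM elsewhere (log2 difference 2.79, SE 0.33, adjusted p = 2.33e-06, 12 of 12 embryos). In cardiomyocyte cells (Nkx2-5, Tnnt2, Myl4 and Ttn) the level was 10.1 CPM at E6.5 (13 cells), 7.42 at E7.0 (34 cells), 29.6 at early E7.5 (164 cells), 21.4 in late E7.5 control replicate 1 (97 cells) and 114 in replicate 2 (977 cells). The E7.75 controls stood at 112 (677 cells) and 64.8 CPM (578 cells). Of the late embryos 3 were thus above every younger embryo with at least 10 cells, late E7.5 control replicate 1 was not, and the set as a whole was 2.83 higher than other cells (SE 0.49, adjusted p = 0.00111, higher in 6 of 7 embryos). In this set 1 ligand was higher and 5 lower, against 11.8% and 19.7% of genes. Wnt2b was higher in nascent mesoderm (2.49, SE 0.26, adjusted p = 4.21e-07), where 6 ligands were higher and 2 lower (18.7% and 29.1% of genes).

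Wnt6 and Wnt7b had their largest differences in extra-embryonic ectoderm cells. Extra-embryonic ectoderm (markers including Elf5, Esx1 and Plac1) forms the placental trophoblast. Wnt7b averaged 27.6 ± 25.9 CPM there and 0.258 ± 0.178 CPM in other cells (log2 difference 5.94, SE 0.48, adjusted p = 1.05e-07) and was higher in 11 of 12 embryos, E7.75 control replicate 1 being listed at 0 UMIs among 37 cells. Wnt6 averaged 43.8 ± 27.8 against 5.51 ± 5.66 CPM (3.14, SE 0.50, adjusted p = 6.48e-05, 12 of 12 embryos) and was also higher in surface ectoderm and amnion cells (1.94, SE 0.22, 9 of 9 embryos, where 13.2% of genes were higher). These 2 ligands were the ones called higher in the extra-embryonic ectoderm set and 6 were lower, against 21.3% and 36.0% of genes. Within these cells Wnt7b stood at 70.1, 47.5, 9.40, 7.49 and 41.8 CPM in the early, 58.6, 9.76 and 59.8 in the middle and 11.04, 14.3, 0 and 0.908 CPM in the late controls, so that the lowest values were those of the E7.75 embryos. The share of extra-embryonic ectoderm cells ranged from 0.249% (E7.75 control replicate 1) to 23.3% (early E7.5 control), which were also the controls with the lowest Wnt7b (0.194 CPM) and the highest (18.1 CPM) in all cells. The epiblast set held more Wnt7b than other cells (1.80, SE 0.24, where 30.8% of genes were higher), but this turned to −1.76 with 3 markers required and was 0.11 after thinning of every cell to 2000 UMIs.

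Shares of cells with a UMI depended on depth and are given before and after thinning. Wnt5a had a UMI in 71.9% of allantois cells (median 22640 UMIs) and 5.42% of blood cells (median 28979 UMIs), a set chosen as a source that should lack most ligands. Thinned to 2000 UMIs per cell, these shares were 18.9% and 0.473%. Wnt3a had a UMI in 33.9% of streak cells (median 23542 UMIs) and 1.34% of blood cells, or 6.80% and 0.142% thinned. Wnt2 had a UMI in 45.2% of cardiomyocyte (median 21049 UMIs) and 6.68% of blood cells, or 14.6% and 0.756% thinned. Cells with a Wnt3a UMI were found in the streak set for 91.3% of them at the median of 10 control embryos, against 21.4% of cells without one. Cells with a Wnt7b UMI were extra-embryonic ectoderm cells for 83.0% against 6.14%. Both contrasts are given without thinning, so depth enters them too. Thinning left out 10646 of the 93701 cells. In the blood set 9 of 10 ligands were lower than in other cells (38.2% of genes) and in neural ectoderm 10 of 10 (23.2% of genes).

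The genes accompanying each ligand were named by a fixed rule. It took the 5 largest fitted log2 differences between cells with and without a UMI of the ligand. Eligible genes were called, higher in every control embryo fitted and at 10 CPM or more in positive cells. Genes outside this rule could differ more. For Wnt3 (12 embryos) the genes named were Mixl1 (1.95), T (1.60), Gal, Fgf17 and Meis2. For Wnt3a (10 embryos) they were Fgf17 (3.50), Fgf4 (3.24), T (3.05), Mixl1 and Cdx1, so that Fgf17, T and Mixl1 were among the 5 for both ligands. Wnt5b was accompanied by Wnt3a (2.61), Msgn1, Fgf17, 5730457N03Rik and T, and Wnt8a by Fgf17 (2.27), Fst, Rxrg, Cxx1c and Epha1.

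The mesodermal and extra-embryonic ligands had other companions. By the same rule Mesp1 came first in Wnt5a-positive cells (2.32, SE 0.09, 270 against 54.2 CPM), followed by Msgn1, Pcdh19, Col1a1 and Slpi. Outside the rule, Tbx4 (2.91), Hoxa11 (2.64), Hoxa10 (2.51) and Cdx4 (2.44) had larger differences in these cells. Wnt2 was accompanied by the sarcomere genes Myl4 (3.10), Actc1 (2.95) and Myl7 with Lefty2 and Gata5, and Wnt2b by Arl4d (1.71), Wnt2, Aplnr, Cdh11 and Dlc1. Tnnt2 for Wnt2 (3.29) and Lefty2 for Wnt2b (2.59) differed more but fell outside the rule. Wnt6 was accompanied by an AU018091 gene (4.71), Wnt7b (4.41), Elf5, Rhox4g and Bmp8b, and the genes named for Wnt7b included Cldn3 (4.65), Vstm5 and S100a6. The extra-embryonic ectoderm markers named above did not all follow these ligands. In Wnt7b-positive cells Elf5 (6.16) and Esx1 (2.34) were higher and Plac1 lower (−2.12). In Wnt6-positive cells Elf5 was higher (4.40), whereas Esx1 (0.53) and Plac1 (−0.19) did not pass. Wnt11 had Cryab (1.67), P4ha2, Efna1, Bmper and Adamts9, and the last pair did not pass after thinning (0.73 and 0.99). Hoxa10 (2.08) and Hoxa11 (2.02) were among the genes outside the rule that differed more in Wnt11-positive cells.

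**Figure D3:**
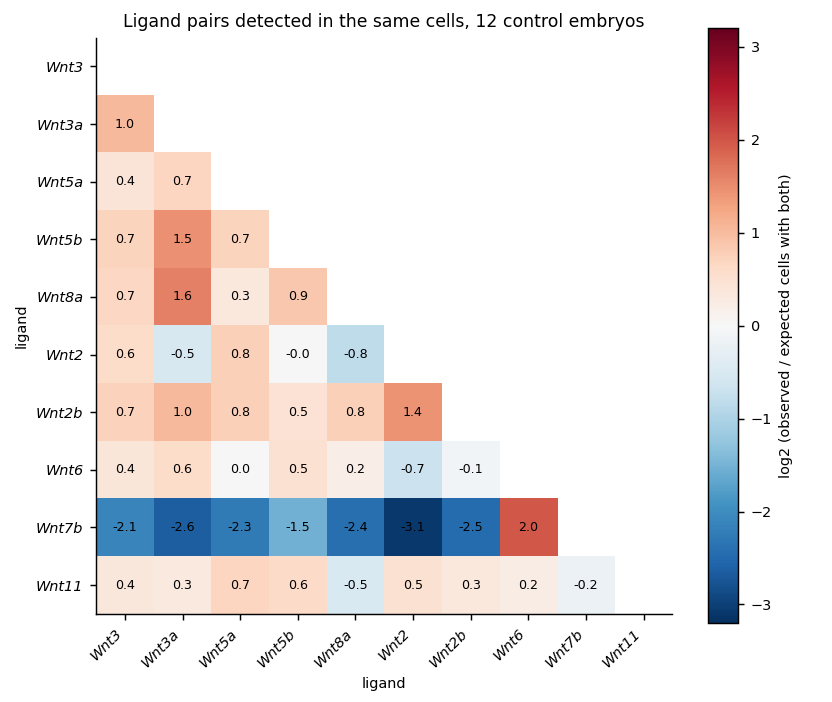
Cells holding a UMI of both ligands of a pair, as log2 of the observed number over the number expected from detection of each ligand at equal depth within each control embryo, for all 45 pairs. The highest value was that of Wnt6 with Wnt7b (1375 cells against 344 expected) and the lowest that of Wnt2 with Wnt7b (26 against 223).

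Ligands were also detected together in the same cells. Numbers of cells with both members of a pair were compared with the number expected when each ligand is spread at random within 10 depth classes of an embryo, so differences between cell types count toward the excess. Wnt6 and Wnt7b were found together in 1375 control cells against 344 expected, and Wnt3a and Wnt8a in 3033 against 998. Wnt3a and Wnt5b shared 3067 cells against 1118, Wnt2 and Wnt2b 877 against 326, and Wnt3 and Wnt3a 1242 against 603. Of 45 pairs 10 were above expectation in all 12 control embryos and 3 were below in all 12. These 3 were Wnt2, Wnt3a and Wnt8a, each with Wnt7b, at 26, 29 and 55 cells against 223, 180 and 294 expected. Wnt7b had a UMI in as few as 0.0739% of the cells of a control. Few pairs are expected in such an embryo, and 0 pairs always count as below. Wnt3a and Wnt8a were above expectation in 11 of the 12 embryos. Wnt8a and Wnt2 were together in 534 cells against 940 expected, and were above expectation in 2 embryos. These ratios are descriptions without a test, and barcodes scored as doublets (8610 cells of the controls) were kept.

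**Figure D4:**
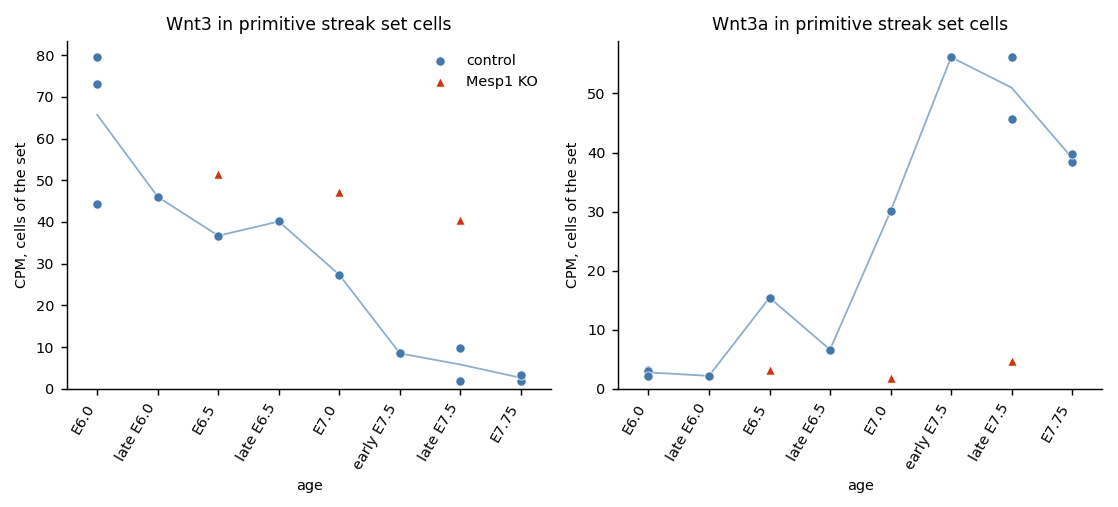
Wnt3 and Wnt3a in cells of the primitive streak set, in CPM (linear axes), by age, with circles for control and triangles for Mesp1 KO embryos and a line through the control means. Control embryos held 44.3 to 79.6 CPM of Wnt3 at E6.0 and 1.83 to 3.40 CPM at E7.75, whereas the KO embryos held 51.4, 47.2 and 40.4 CPM of Wnt3 and at most 4.73 CPM of Wnt3a.

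In control streak cells Wnt3 was lower and Wnt3a higher at the late than at the early stage, without overlap, whereas KO streak cells of every age held Wnt3 within the range of the early controls. In control streak cells Wnt3 stood at 79.6, 73.2 and 44.3 CPM at E6.0, 46.0 at late E6.0 and 36.7 CPM at E6.5. It stood at 40.1, 27.3 and 8.47 CPM in the middle and 9.71, 1.89, 1.83 and 3.40 CPM in the late controls. In the KO streak cells Wnt3 stood at 51.4 CPM at E6.5 (708 cells), 47.2 at E7.0 (623 cells) and 40.4 at late E7.5 (1373 cells). The middle and late KO values were above every control of their stage. Wnt3a in control streak cells was 3.14, 2.96, 2.20, 2.17 and 15.4 CPM in the early, 6.62, 30.1 and 56.1 in the middle and 56.2, 45.7, 38.4 and 39.8 CPM in the late controls. The KO streak cells held 3.10, 1.81 and 4.73 CPM, below every control from E6.5 on. The ratio of Wnt3 to Wnt3a UMIs, of which only the change between embryos is read, ranged from 2.38 to 25.4 in the early and from 0.0413 to 0.173 in the late controls and was 16.6, 26.1 and 8.53 in the KO embryos.

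These differences within streak cells did not pass the test across all genes. Over stages, the KO against control difference was 1.92 for Wnt3 (SE 0.62, adjusted p = 0.143), −2.27 for Wnt3a (SE 0.79, adjusted p = 0.162), −1.59 for Wnt5a (SE 0.33, adjusted p = 0.0529), −1.47 for Wnt8a (SE 0.45, adjusted p = 0.131) and −2.74 for Wnt6 (SE 0.90, adjusted p = 0.145). Thus 0 of 10 ligands passed with edgeR and 5 had an unadjusted p under 0.05, where 0.361% and 18.3% of 14697 genes did. DESeq2 called these same 5 ligands (adjusted p of 0.000134 to 0.0330) and 6.38% of genes. Wnt5a alone passed in edgeR when E6.0 control replicate 3, the late E6.5 control or the early E7.5 control was left out. The streak set differed between genotypes in its own markers. By stage, from early to late, T averaged 255 ± 92.0, 448 ± 230 and 287 ± 139 CPM in the controls and stood at 194, 135 and 295 CPM in the KO embryos. Mixl1, an early streak gene, averaged 279 ± 172, 108 ± 21.4 and 43.3 ± 31.4 CPM and stood at 242, 211 and 188 CPM. Fgf8 averaged 280 ± 155, 126 ± 46.8 and 174 ± 61.3 CPM and stood at 322, 285 and 250.1 CPM. Evx1 averaged 37.7 ± 18.7, 72.0 ± 20.7 and 84.9 ± 61.1 CPM and stood at 47.4, 36.4 and 126 CPM, and their part in the ligand result was not tested. The late KO streak cells had a median of 4389 UMIs.

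**Figure D5:**
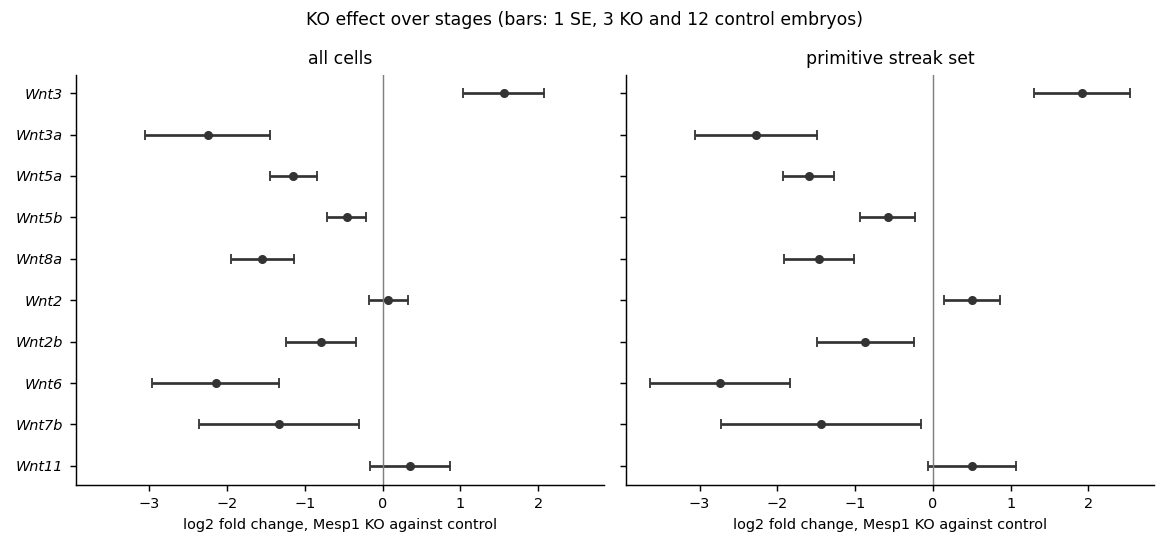
Fitted log2 difference between Mesp1 KO and control embryos over stages for each ligand, with bars of 1 standard error, in all cells and in primitive streak cells. In all cells Wnt3 lay at 1.55 and Wnt3a, Wnt6 and Wnt8a at −2.25, −2.15 and −1.55, and none passed an adjusted p of 0.05 in edgeR.

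In all cells of the KO embryos, Wnt3 stood at 30.02, 25.7 and 13.7 CPM at E6.5, E7.0 and late E7.5. The first value lay within the early controls, and the other 2 lay above every control of their stage (fitted difference 1.55, SE 0.52, adjusted p = 0.235). Wnt3a stood at 1.45, 0.765 and 0.854 CPM, the latter 2 below every control of their stage (−2.25, SE 0.80, adjusted p = 0.258). Beside controls of the same age, all from other experiments, the KO held 1.45 against 7.06 CPM of Wnt3a at E6.5, 0.765 against 13.6 at E7.0 and 0.854 against a mean of 11.7 CPM at late E7.5. Wnt5a stood at 5.72, 5.18 and 9.10 CPM and was below every control of its stage at all 3 stages (−1.15, SE 0.30, adjusted p = 0.158). As in streak cells, a place of 1 KO embryo outside 3 to 5 controls is a description and not a test. Wnt8a stood at 3.63, 2.59 and 2.52 CPM, below its controls in the middle and late stages (−1.55, SE 0.41, adjusted p = 0.163), and Wnt5b stood at 9.95, 7.35 and 5.61 CPM, likewise below its controls in the middle and late stages (−0.46, SE 0.25, adjusted p = 0.438). The presomitic mesoderm set was smaller in the KO embryos than in every control of their stage, and so was the caudal epiblast set at the middle and late stages. Caudal epiblast cells made up 0.945%, 0.597% and 0.179% of the KO embryos and 0% to 3.73%, 1.69% to 22.9% and 13.6% to 30.7% of the early, middle and late controls. Presomitic mesoderm cells made up 4.73%, 3.88% and 1.97% of the KO embryos and 5.56% to 17.2%, 10.3% to 23.6% and 8.44% to 20.9% of the controls, and the part of both sets in the Wnt3a and Wnt8a values was not tested.

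Wnt6 stood at 3.47, 1.504 and 1.14 CPM in the KO embryos, below the middle and late controls (−2.15, SE 0.82, adjusted p = 0.287). Wnt7b stood at 4.58, 2.02 and 0.116 CPM (−1.33, adjusted p = 0.593, and 1.20 with experiment as a covariate). The last value rests on 6 UMIs and lay below every late control, the lowest of which held 0.194 CPM. Set against controls of the same experiment, Wnt7b differed by 2.39 at the early and −0.74 at the late stage. Extra-embryonic ectoderm cells made up 12.1%, 9.56% and 0.498% of these 3 embryos, and their part in both values was not tested. Wnt2 stood at 9.39, 9.32 and 8.07 CPM, within the controls of every stage (0.07, adjusted p = 0.928). Its late sources differed. The lateral plate set held 68.7% of Wnt2 UMIs over the late controls (21.2% to 80.2% in single embryos) and 13.2% in the late KO. For the cardiomyocyte set these shares were 46.5% (5.87% to 55.1%) and 1.92%. The late KO was a shallow library in which many cells entered no set. Wnt2b stood at 1.51, 1.73 and 1.05 CPM, below every early and middle control and within the late controls (−0.79, SE 0.46, adjusted p = 0.467). Its fitted difference was 0.0077 with experiment as a covariate. Within experiments Wnt2b differed by −0.79 at the early and 0.97 at the late stage. Wnt11 stood at 1.64, 1.60 and 3.39 CPM, within the controls of every stage (0.35, SE 0.52, adjusted p = 0.799). Beside controls of the same age the KO values of Wnt11 were higher, 1.64 against 0.808 CPM at E6.5, 1.60 against 0.640 at E7.0 and 3.39 against a mean of 1.43 CPM at late E7.5, with 1, 1 and 2 controls and no test. These controls all came from other experiments than the KO embryos. Set against controls of the same experiment, Wnt11 differed by 0.46 at the early and −0.16 at the late stage.

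Shares of cells with a UMI were also taken after thinning to 2000 UMIs per cell, which left out 2195 KO and 8451 control cells with fewer UMIs. For Wnt3a they were 0.177% to 0.301% in the KO embryos and 0% to 3.17% in the controls, and for Wnt8a 0.475% to 0.672% and 0.196% to 4.67%. Wnt5a was found in 1.14% to 1.79% of KO and 1.17% to 5.91% of control cells. The KO ranges of these 3 ligands lay in the lower part of the control ranges or just under them, whereas Wnt3 was found in 2.68% to 4.46% of KO and 0.251% to 7.502% of control cells. Blood cells of the controls held 0.142% for Wnt3a, 0.189% for Wnt8a, 0.473% for Wnt5a and 0.0473% for Wnt3.

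In the test over stages, 0 of 10 ligands passed with edgeR and 5 had an unadjusted p under 0.05, where 0.124% and 13.6% of 16997 genes did. The median over the ligands was −0.97 and over all genes −0.0038, with 7 of 10 ligands below 0. DESeq2 called Wnt3a, Wnt5a and Wnt8a (−2.14, −1.15 and −1.54) and 3.63% of genes. In the tests by stage the KO arm was 1 embryo, assumed to vary like the control embryos, whose spread alone entered the error. In these tests 0 ligands passed at the early, middle or late stage, where 0%, 0% and 0.0328% of 18290 genes passed. An unadjusted p under 0.05 was found for 0, 4 and 4 ligands, against 2.2%, 6.91% and 7.72% of genes. At the late stage the fitted difference was 2.85 for Wnt3 (adjusted p = 0.289), and DESeq2 called it and Wnt8a (2.87 and −2.47) with 0.694% of genes. The difference between the late and the early KO effect passed for 0 ligands in edgeR and DESeq2, with 3 ligands at an unadjusted p under 0.05 in edgeR, against 0% and 3.02% of genes. These comparisons draw on the same control embryos.

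Experiment and age differed between the genotypes. Set against the 2 younger controls of its own experiment, the E6.5 KO differed by 0.12 for Wnt3, 0.52 for Wnt3a, −0.61 for Wnt5a and −0.25 for Wnt8a on the log2 scale. The late E7.5 KO, set against its only companion, E7.75 control replicate 1, differed by 3.42 for Wnt3, −2.87 for Wnt3a, −1.34 for Wnt5a and −2.55 for Wnt8a, and both these libraries were of like depth. The E7.0 KO had no control of its stage in its experiment. For Wnt6 the within-experiment difference was 2.12 at the early and −2.54 at the late stage.

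Of 13 sets with at least 10 cells in every KO embryo, the difference passed for 2 pairs of set and ligand. In lateral plate and extra-embryonic mesoderm cells, Wnt5a stood at 18.1, 13.9 and 20.7 CPM in the KO embryos (154, 145 and 816 cells) and at 23.6 to 63.7 CPM in the 12 controls, without overlap within any stage (−1.06, SE 0.19, adjusted p = 0.0266, where 0.294% of genes were lower). It was −0.66 with 3 markers required and −0.65 after thinning, and did not pass in either. In the definitive endoderm set (Sox17, Foxa1, Trh and Cer1) Wnt3a had 1, 2 and 0 UMIs in 400, 442 and 1588 KO cells. The controls held 0 to 149 UMIs. It was lower there (−4.38, SE 0.92, adjusted p = 0.0389, where 0.705% of genes were lower), a fitted value that depends on few KO counts and did not pass after thinning (−5.28).

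Among the other pathway genes none passed in the KO comparison over stages in edgeR. An unadjusted p under 0.05 was found for 7 of 13 canonical targets, among them Nkd1 (−1.79, adjusted p = 0.154) and Tbx6 (−2.31, adjusted p = 0.158), for 6 of 16 receptors, for 5 of 11 secreted inhibitors, among them Sfrp2 (−1.30, adjusted p = 0.132), for 3 of 7 R-spondin genes and for 2 of 14 intracellular components, beside 13.6% of all genes. Over the targets the median difference was −0.71, and over all genes −0.0038.

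The 10 genes lie on 8 chromosomes as protein-coding genes, and the values above count UMIs over the whole gene. Wnt6 spans chr1:74771892-74785322 (plus strand), 6193 bases from Wnt10a, and Wnt2b chr3:104945272-104961921 (minus). Wnt2 spans chr6:17988940-18030585 and Wnt5b chr6:119432531-119544347, both on the minus strand. Wnt11 spans chr7:98835112-98855195 (plus), Wnt5a chr14:28504750-28527448 (plus), Wnt7b chr15:85535437-85582473 (minus) and Wnt8a chr18:34542313-34548273 (plus). Wnt3 has Wnt9b at 24328 bases and Wnt3a has Wnt9a at 16175 bases as a neighbor.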

How the data were processed

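Whole embryos were dissociated and sequenced with the 10x Genomics 5′ chemistry, and the authors deposited UMI counts per gene and barcode, made with Cell Ranger 3.0.2 against mm10 with reporter sequences added, per the labels and the study's methods. Annotation used in the alignment was not given in the sources used here, and GENCODE M21 gave gene positions. Cells with under 10% mitochondrial UMIs, under 50000 UMIs and 200 to 7000 genes were retained. Doublets were scored by simulated neighbors (0.8% per 1000 cells) and kept, except in an alternative. Counts were summed per embryo, or per embryo and set with at least 10 cells, and tested with edgeR 4.0.16 (quasi-likelihood, TMM, filterByExpr, Benjamini-Hochberg over all genes tested, threshold 0.05) in R 4.3.3, with stage and genotype or embryo as terms. DESeq2 1.42.0 was an alternative, as were other gene limits, no filter, 3 markers, thinning to 2000 UMIs, doublets or single embryos left out, experiment and replicate terms and age-matched controls. The difference between the late and early KO effects was added after the data were seen. Members, marker lists and pathway lists were chosen with earlier results of these data known. Genes named were the 10 ligands, the listed pathway genes and, per ligand, up to 5 genes by fitted difference with at least 10 CPM in positive cells, called and higher in every embryo, and some marker and companion genes are not reported here. RefSeq promoters matched 7 of the ligands by symbol. For the KO test over stages, counts were simulated with a common spread for all genes and no stage difference, with changes in better-detected genes only. This test recovered 31% of genes changed by 1 on the log2 scale and 100% of those changed by 2. These shares need not hold for ligands with a larger spread, as Wnt3a (−2.25, SE 0.80) and Wnt6 (−2.15, SE 0.82) were not called. Embryos were grouped from the labels, and the sources do not say which shared a litter. UMI counts carry counting error only in the intervals, and depth was 13058356 UMIs or more per library.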

Additional observations from a re-analysis of the deposited data

Results flagged for a closer look

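Of 40 groups of 4 or 5 control embryos examined for a single embryo far from the others, 5 stood out. Chance alone marks about 5% of groups when groups are independent and their embryos alike. Here groups mixed ages and experiments, and streak cells were part of all cells, so 5% is not the rate to be met here. Among the early controls, the E6.5 control had 7.06 CPM of Wnt3a in all cells, where the other 4 ranged from 0.927 to 1.53 CPM. The same embryo had 15.4 CPM of Wnt3a in primitive streak cells against 2.17 to 3.14 CPM. It was the oldest early control and the only one from its experiment. Among the late controls, late E7.5 control replicate 1 had 11.1 CPM of Wnt2 in streak cells against 3.13 to 4.13 CPM in the others, and 6.55 CPM of Wnt2b against 0.522 to 1.03 CPM. E6.0 control replicate 1 had 1.498 CPM of Wnt7b in streak cells against 0 to 0.237 CPM in the other early controls.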

How the results depend on the processing

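Of 1225 alternative values 1152 kept their direction and call, and the following changed. DESeq2 called 3 ligands over stages in KO, 2 at the late stage and 5 in streak cells, where edgeR called 0, and 1 from middle to late. The pairs of set and ligand called in KO went from 2 to 20 with DESeq2, 1 with 3 markers and 0 after thinning. DESeq2 also called a larger share of all genes than edgeR in streak cells. Its share of all genes in the other sets is not given here, so the rise is not read as a ligand result. Of 5 ligands called from early to late, 0 passed with experiment as a covariate. The labels do not tie a replicate number used at several ages to a shared animal or batch, deviations of same-numbered controls correlated from −0.53 to 0.20, and the replicate block left 3 (Wnt3, Wnt5a and Wnt8a). Leaving out 1 embryo gave 3 to 5 calls from early to late (3 without E6.0 replicate 1, E7.75 replicate 1 or E7.75 replicate 2), 0 to 1 from early to middle, 0 to 2 from middle to late and 0 to 1 in KO streak cells. For KO over stages, Wnt2 was −0.0060 with 6300 genes as the limit and −0.043 with experiment, which also gave Wnt2b 0.0077 and Wnt7b 1.20, and leaving out 1 embryo gave −0.0055 to 0.16 for Wnt2 and −0.055 to 0.62 for Wnt11. At the late stage Wnt2 was 0.094 and Wnt2b 0.014 without doublets, Wnt2 was 0.13 with age-matched controls, and leaving out 1 embryo gave −0.19 to 0.26 for Wnt2 and −0.29 to 0.63 for Wnt2b. From early to late Wnt2 was −0.23 with experiment, and Wnt11 ranged from −0.12 to 0.82 without 1 embryo. Wnt7b in epiblast cells turned from 1.80 to −1.76 with 3 markers (adjusted p = 0.00758). The causes were not tested. Each KO stage had 1 embryo.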
